A study of Megathyrsus maximus with 33 samples.

Results

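The change between 2 sampling dates was examined in leaves of Guinea grass (Panicum maximum, also called Megathyrsus maximus, a tropical pasture grass) that grew in the field under elevated [CO2] and warming together (eCeT). The members are the 4 eCeT plots sampled after 30 days of treatment (time point A, or A below) and again at time point B (B), labelled 50 days. They give 8 of the 32 RNA-seq libraries, taken as 4 pairs of the same plot. Plots 1 to 4 below are the replicate numbers of the eCeT plots, which the field labels number 6, 8, 14 and 16. All 39208 transcripts of the deposited log2 table were tested, and the eCeT plots were compared with the ambient control (C), elevated [CO2] alone (eC) and elevated temperature alone (eT), each with 4 plots at both time points. In eC and eCeT the target was 600 ppm CO2 by free-air enrichment, in eT and eCeT infrared heaters warmed the canopy by 2 °C, and C had neither. All plots held the same grass in the same field, and RNA came from a pool of the youngest fully expanded leaves of a plot. The study's methods date time point B in June and the design text of the data set in July, so the labelled 50 days may be about a month short. Season, weather and age of the stand changed with the date in every plot, and they cannot be told apart from the length of treatment.

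Leaves carry several systems whose transcripts are known to move with temperature, age and season. Heat shock proteins are chaperones that keep other proteins folded and rise quickly when plants are heated. Receptor kinases of the cell surface and NB-ARC resistance proteins inside the cell sense microbes and damage, and pathogenesis-related proteins such as osmotins, glucanases and chitinases act against microbes. Photosystem, plastocyanin and NDH proteins carry electrons in the chloroplast, and CONSTANS and FT relatives pass on day-length signals to flowering in Arabidopsis and grasses. The 86 named transcripts below belong to 9 groups, and each name is the best match in Arabidopsis given in the study's files. Of these, 74 were picked by the study for a difference of eCeT from C at A, and 12 because they followed a metabolite at B. The first kind was therefore chosen on the same 4 eCeT libraries of A that enter every change reported here. The second kind was chosen on libraries of B, which enter the changes as well. The counts and directions of both kinds are descriptions and not independent evidence.

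The deposited value is the log2 of counts per 1e6 reads (CPM), with 0.5 reads added and library sizes scaled by TMM, a method that sets the libraries to a common level for most transcripts. Reads could be recovered from it as whole numbers. They came to between 8650485 and 12561618 per library at A and between 11252331 and 12838473 at B. The library of plot 3 at A was the shallowest of the 8, with 2531 transcripts at 0 reads. A single transcript without a name, c78052_g1, took between 1.66% and 12.3% of the reads at A and between 9.39% and 37.5% at B. Its 37.5% were in plot 4, where the 10 most abundant transcripts together took 52.5% of the reads. Of the leaf markers set for a check of the tissue, the ribulose-5-phosphate epimerase homolog c81866_g1, an enzyme of the Calvin cycle, had between 4495 and 9520 reads in each of the 8 libraries, and the other 4 markers were found at both time points as well. Among these 4, c87432_g1 had only 1, 8, 1 and 4 reads at A and 6, 8, 23 and 2 at B. The plastocyanin homolog c66714_g1 had 6, 5, 16 and 39 reads at B.

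In the eCeT plots 2371 of the 39208 transcripts changed between the time points (limma, plot as a block, adjusted p under 0.1), which is 6.05% of those tested. Of these, 1217 were higher at B (3.1%) and 1154 were lower (2.94%). The median change was 1.56 on the log2 scale for those that rose and -1.08 for those that fell, and 833 rose and 632 fell at least 2-fold. In 1124 of the transcripts that rose and 1064 of those that fell, each of the 4 plots moved in the direction of the call. Over all transcripts the median change was 0.01. In these bulk samples fewer cells of a type and less RNA per cell cannot be told apart. The even split depended on the TMM scaling. Without it 668 were called higher and 2696 lower, with the median of all transcripts shifted by -0.25, and in the FPKM table, which has no such scaling, 505 were higher and 4389 lower with a shift of -0.22.

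The calls were not spread evenly over the range of expression. The transcripts were put in 4 classes of 9802 by their mean level over the 8 libraries. In the lowest class 329 rose and 114 fell, and in the highest 294 rose and 593 fell. The share called was 4.52% in the lowest class and 9.05% in the highest. Few transcripts were without reads at only one date. A total of 44 had no read in the 4 libraries of A and at least 1 read in each of B, of which 33 were called, and 18 showed the opposite, of which 13 were called. They were chosen on the same reads that the test uses. A share called far above the 3.1% and 2.94% of all transcripts is therefore largely built into the choice.

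The call depended strongly on the number of plots and on plot 3. With plot 3 left out 279 transcripts were called, compared with 913 without plot 1, 1742 without plot 2 and 1431 without plot 4. No transcript of the 2371 changed its sign in any of these. They were called on the same 4 plots, so a kept sign is largely built into the choice. The change within plot 3 was the widest of the 4, with 32.2% of transcripts differing more than 2-fold between the dates against 22.7% in plot 1, 21.5% in plot 2 and 25.8% in plot 4. The part of the shallow library in this was not tested.

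**Figure D1:**
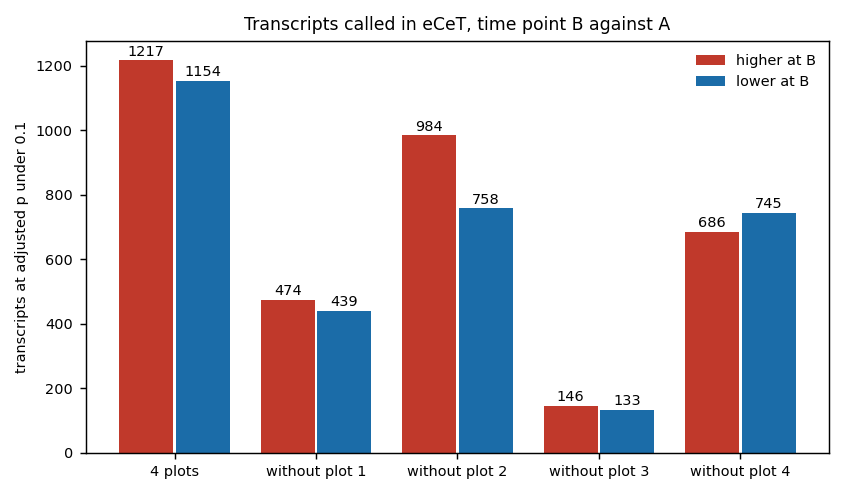
Number of transcripts (y axis) called higher (red bars) and lower (blue bars) at B than at A in eCeT, with all 4 plots and with each plot left out (x axis). The bars fall from 1217 and 1154 with 4 plots to 146 and 133 without plot 3.

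Heat shock transcripts had lower mean levels at B. All 9 had a lower mean at B, and 3 of the 9 fell at the threshold, the homologs of HSP90, HSP101 and HSP21, while none rose. Over all transcripts 2.94% fell and 3.1% rose. The median change of the 9 was -1.24, compared with 0.01 over all transcripts, and 8 of the 9 were among those picked at A. Their summed level was 243, 212, 699 and 244 CPM in plots 1 to 4 at A and 129, 150, 94.1 and 251 at B. It was lower at B in plots 1 to 3 and not in plot 4, and the highest value by far was that of plot 3 at A. In plot 4 the summed reads went from 3295 at A to 1980 at B. TMM set the library size of plot 4 to 1.08 of its reads at A and 0.61 at B. The exception of plot 4 depends on this scaling.

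The HSP90 homolog c69462_g3, a chaperone that helps signalling proteins to fold, had 40, 15, 140 and 33 reads in plots 1 to 4 at A and 0, 1, 1 and 13 at B. It fell by 4.25 on the log2 scale (SE 1.06, n = 4 pairs, limma adjusted p = 0.0369), and was lower in 4 of 4 plots, although the value of plot 4 at B lay within the range of A. Here and below the SE is that of limma, from a variance shared over the plots of all treatments. It does not measure the spread of the 4 eCeT changes. The homolog of HSP21, c78721_g1, a small heat shock protein of the chloroplast, had 415, 230, 816 and 458 reads at A and 35, 73, 36 and 251 at B. The change in the plots was -3.41, -1.76, -4.71 and -0.09, with a mean of -2.49 (SE 0.69, adjusted p = 0.0564). The call of HSP21 was lost without a variance trend (limma adjusted p = 0.151) and with robust moderation (0.148). The HSP101 homolog c88586_g2, which in Arabidopsis pulls apart aggregated proteins after heat, had 302, 272, 652 and 226 reads against 108, 139, 65 and 186. It fell in plots 1 to 3 and was 0.50 higher in plot 4, and the mean of -1.36 (SE 0.44) was just inside the threshold (adjusted p = 0.0925). The call of HSP101 was lost without the plot as a block (adjusted p = 0.186) and with the plot as a random effect (0.152). It was also lost with only the 8 eCeT libraries (0.155), with quantile normalization (0.113), without a variance trend (0.192) and with robust moderation (0.181). The other fits with 4 plots kept it (limma adjusted p from 0.0221 to 0.0977).

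The remaining 6 heat shock transcripts did not pass. The class I small heat shock protein c76756_g2 was the most abundant of the group per length, with a median of 211 FPKM at A and 70.4 at B. It had 816, 444, 2583 and 1130 reads at A and 269, 394, 194 and 669 at B, and its change of -1.42 (SE 0.55) had an adjusted p of 0.165. The class II member c85117_g1 had 602, 620, 1712 and 613 reads against 402, 557, 354 and 352. Its 4 values at B all lay below those of A, with a mean change of -0.81 (SE 0.31, adjusted p = 0.162). The change of the MBF1C homolog c75211_g1, a coactivator of the heat response in Arabidopsis, was -0.83, -0.60, -3.45 and 0.11 in the 4 plots (adjusted p = 0.293). The BAG6 homolog c67880_g1, the DnaJ-domain protein c88026_g1 and the small heat shock protein c84367_g1 had values of -1.01, -0.37 and -1.24. No member of the group passed without plot 3 (median -0.57) or without plot 1 (median -1.37). Without TMM scaling 5 of the 9 were called lower, and 7 were in the FPKM data.

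**Figure D2:**
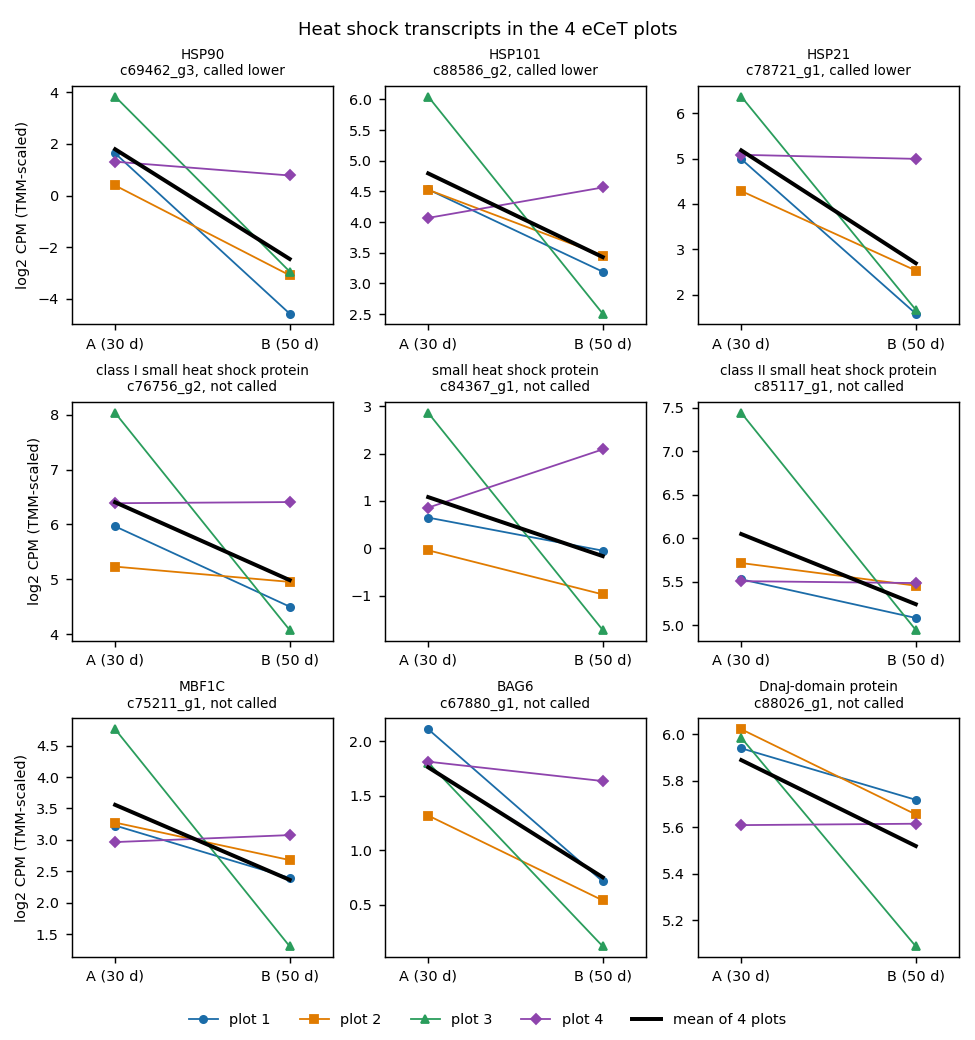
Level of the 9 heat shock transcripts (y axis, log2 of TMM-scaled CPM) at A and B (x axis) in the 4 eCeT plots, each a coloured line, with the mean in black. Plot 3 has the largest drop in 9 of the 9 panels, and plot 4 has a higher value at B than at A in 5.

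Of 16 receptor kinases, receptor-like proteins and resistance proteins, 6 rose and none fell, and 15 had a higher mean at B. The shares called over all transcripts were 3.1% higher and 2.94% lower. The median change was 1.45, compared with 0.01 over all transcripts. All 16 had been picked at A, so nothing is read from these counts. All are low in abundance, and the whole group summed to between 50 and 134 reads in the libraries of A and between 145 and 339 at B.

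The lectin receptor kinase c73129_g1, of a family that binds sugars at the cell surface, had 12, 5, 1 and 16 reads at A and 22, 31, 41 and 34 at B. The time points did not overlap, and it rose by 2.45 (SE 0.45, n = 4 pairs, adjusted p = 0.00879). The leucine-rich repeat kinase c80773_g2 had 8, 17, 6 and 10 reads against 31, 46, 66 and 17. It rose in the 4 plots by 2.03, 1.30, 3.13 and 1.51, with an adjusted p of 0.00927. Wall-associated kinases span the membrane and bind pectin of the cell wall. The homolog c80406_g1 had 5, 9, 6 and 9 reads at A and 22, 30, 33 and 12 at B, a rise of 1.77 (SE 0.38, adjusted p = 0.0196). A second one, c86624_g1, had 27, 23, 5 and 14 reads against 50, 45, 48 and 23, a rise of 1.56 (SE 0.35, adjusted p = 0.0211). In both the time points were fully apart.

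The relative of the cysteine-rich receptor kinases, c90382_g1, had 3, 5, 0 and 4 reads at A and 8, 8, 16 and 6 at B, and rose by 2.02 (adjusted p = 0.0683). The leucine-rich repeat protein c61685_g1 rose by 2.41 (adjusted p = 0.0602), from 0, 0, 4 and 2 reads to 8, 7, 15 and 1, and here the time points overlapped. These last 2 rest on very few reads. Among the 10 that did not pass were 3 cysteine-rich receptor kinases, with changes of 0.51, 0.75 and 0.91, the EF-Tu receptor homolog c79995_g4, which in Arabidopsis detects a bacterial protein (1.51, adjusted p = 0.244), and the NB-ARC protein c82299_g1 (1.22, adjusted p = 0.355). The ADR1-like c70514_g1, a helper of resistance proteins in Arabidopsis, was the one with a lower mean (-0.65, adjusted p = 0.615). Without plot 3, 2 of the 16 were called and the median was 1.06. In the FPKM data, on the log2(FPKM + 1) scale, 2 were called and the median was 0.30, and with 5 reads added 6 were called and the median was 0.68.

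**Figure D3:**
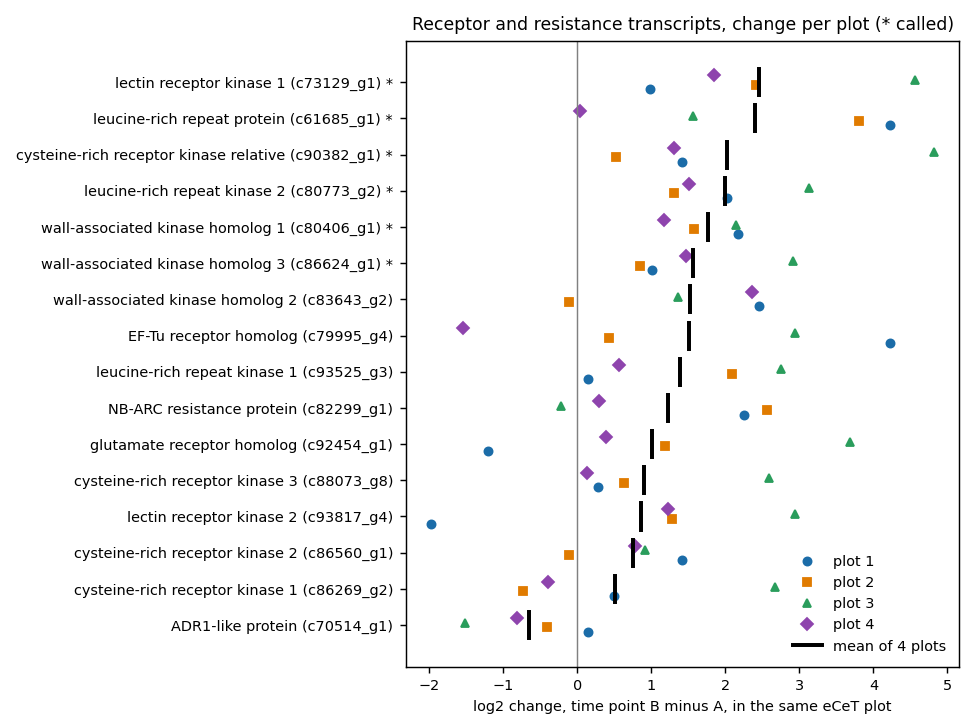
Change of each receptor and resistance transcript (y axis) between time points A and B (x axis, log2 scale) in the 4 eCeT plots (coloured points) with their mean (black bar). The means run from -0.65 to 2.45, and the point of plot 3 lies farthest to the right in 9 of the 16.

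Most transcripts of defence proteins did not pass the test. Of 13 only 1 was called, and it fell, a share near the 6.05% called over all transcripts, while 4 had a higher mean and 9 a lower mean at B. The median was -0.33, and the 13 had been picked at A. The called one was the polygalacturonase inhibiting protein c86748_g3, which blocks fungal enzymes that degrade pectin. It had 14, 8, 6 and 8 reads at A and 1, 1, 1 and 0 at B, without overlap. The ratio of the summed reads, 36 against 3, was 10.9 with a 95% interval from 3.46 to 55.5 that covers counting error only, and the limma adjusted p was 0.0761. The call was lost with any of the 4 plots left out.

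The other defence proteins showed a split among the plots. The PR-1 family protein c93531_g5 had 134, 144, 619 and 149 reads at A and 152, 138, 163 and 98 at B. The 619 reads of plot 3 stood apart from the other 7 libraries, and the change of -0.45 (SE 0.33) did not pass (adjusted p = 0.507). The osmotin homolog c77132_g2 had 386, 284, 889 and 358 reads against 342, 397, 377 and 186 (change -0.32, adjusted p = 0.647), and another, c79024_g1, had 374, 326, 629 and 425 against 518, 548, 723 and 139 (change 0.10, adjusted p = 0.917). The beta-1,3-glucanase homolog c83775_g1 had 34, 32, 169 and 19 reads against 21, 33, 23 and 2, with a change of -1.47 and an adjusted p of 0.109. As in the heat shock group, plot 3 at A was high in these 4 transcripts. The summed level of the group was 93.1, 89.6, 278 and 88.5 CPM at A and 107, 111, 146 and 65.1 at B.

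Specialised metabolism showed changes in both directions. Of 18 transcripts 2 rose and 3 fell, where 3.1% and 2.94% of all transcripts did, 13 did not pass, and the median was 0.41. The study had picked 17 of them at A, and no member was called without plot 3 or without plot 4. The 3 that fell were a terpene synthase, a cytochrome P450 and a chalcone synthase relative. The terpene synthase c87151_g1, of a family that makes volatile terpenes, had 18, 28, 27 and 101 reads at A and 12, 23, 2 and 3 at B, and fell by 2.14 (SE 0.58, adjusted p = 0.0513). The fall was -3.68 and -4.08 in plots 3 and 4 and only -0.43 and -0.38 in plots 1 and 2. The CYP76G homolog c78858_g1 showed the same plots to the fore, with 38, 20, 50 and 198 reads against 10, 21, 5 and 7 (change -2.29, adjusted p = 0.0704). The CYP79B homolog c92299_g1, a family that in Arabidopsis opens glucosinolate and auxin synthesis, went from 80, 31, 97 and 179 reads to 28, 70, 4 and 8. Its mean was -2.15, but it was higher at B in plot 2 and did not pass (adjusted p = 0.114).

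The chalcone synthase family protein c68894_g1, of the family that opens the flavonoid pathway, had 7, 4, 5 and 10 reads at A and 1, 1, 0 and 0 at B. The ratio of 26 to 2 reads was 11.8, with a counting interval from 2.97 to 103, and the limma adjusted p was 0.0466. The UDP-glucosyltransferase c82435_g1, which attaches glucose to small molecules, rose by 2.21 (adjusted p = 0.0952), from 17, 15, 0 and 10 reads to 15, 51, 37 and 14. Its change was -0.04 in plot 1 and 6.01 in plot 3, where no read was found at A. The 2-oxoglutarate dioxygenase c79944_g1 rose by 1.53 (adjusted p = 0.0836) on 6 reads at A and 17 at B. This call was lost in 8 of the 11 other fits that kept the 4 plots and tested it (adjusted p from 0.101 to 0.612), and with any plot left out. The cinnamoyl-CoA reductase-like c72426_g1, of the lignin pathway, was 0.17 higher and did not pass (adjusted p = 0.807), with a negative sign without TMM scaling.

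Among 11 transcripts of photosynthesis and the chloroplast 2 rose and 2 fell, where 3.1% and 2.94% of all transcripts did. The median was -0.25. Of these 5 had been picked at A and 6 for a metabolite at B, and none was called without plot 3. The homolog of plastocyanin, c66714_g1, which carries electrons to photosystem I, had 101, 106, 110 and 85 reads at A and 6, 5, 16 and 39 at B. The 4 values of A lay close together, the time points did not overlap, and the fall was 2.88 (SE 0.62, adjusted p = 0.019), 7.35-fold. It was weakest in plot 4, with -0.34 there against -3.83, -4.38 and -2.97 in plots 1 to 3. In C and eC the same transcript had values of 0.18 and 0.40 with adjusted p of 0.891 and 0.742, and in eT by -1.45 (adjusted p = 0.154). The difference from C was -3.06 (SE 0.88) and did not pass over all transcripts (adjusted p = 0.592), and that from eC was -3.28 (adjusted p = 0.343).

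The NDH subunit homolog c84013_g1, part of the complex that cycles electrons around photosystem I, had 66, 101, 42 and 87 reads at A and 325, 213, 428 and 68 at B. It rose by 1.73 (SE 0.33, adjusted p = 0.0113), and on the CPM scale the time points were apart, since the library of plot 4 at B has the smallest effective size. The light harvesting protein of photosystem I c82081_g1 had 155, 178, 64 and 159 reads against 311, 246, 445 and 120, a rise of 1.11 (SE 0.34, adjusted p = 0.0802). This call was lost without TMM scaling (limma adjusted p = 0.151), in the FPKM data (0.265), without a variance trend (0.18) and with robust moderation (0.152). It was also lost with voom on the recovered reads (0.101) and without plot 1 (0.194) or plot 3 (0.468). The fibrillin family protein c76202_g1, of the proteins that coat lipid droplets in the plastid, was much more abundant, with 2099, 1934, 1378 and 2215 reads against 1165, 1084, 898 and 849. Its fall was even among the plots (-0.71, -0.94, -0.84 and -0.61) with a mean of -0.78 (SE 0.17, adjusted p = 0.0205). The study's files give it the same match as c76264_g1, which had a value of -0.25 and did not pass (adjusted p = 0.442), so reads of near-identical copies may have been shared. The 2 aminolevulinate dehydratase-like transcripts of chlorophyll synthesis, which also share a match, had a mean difference of 0.01 each, and the epimerase c81866_g1 one of -0.37 (adjusted p = 0.303), like the zinc-binding oxidoreductase c80513_g1 with -0.39 (adjusted p = 0.263).

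The CONSTANS-like homolog c83306_g1 had the clearest rise of all named transcripts. CONSTANS proteins in Arabidopsis translate day length into the expression of FT, the mobile signal of flowering. It had 5, 5, 13 and 4 reads in plots 1 to 4 at A and 29, 40, 55 and 30 at B, without overlap. The rise was 2.56, 2.78, 1.82 and 3.54 in the plots, with a mean of 2.67 (SE 0.41, n = 4 pairs, adjusted p = 0.00351), and it was called in every alternative run, the omission of plot 3 included. In C, eC and eT its values were 0.85, 0.96 and 0.80, with adjusted p of 0.205, 0.15 and 0.232. The difference from these treatments was 1.83, 1.71 and 1.87 (SE 0.57 each) and did not pass over all transcripts (adjusted p = 0.592, 0.444 and 0.59).

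The FT homologs did not move with it in all plots. FT homolog c64038_g2 had 211, 67, 132 and 164 reads at A and 504, 262, 104 and 160 at B. It was higher in plots 1, 2 and 4 and lower in plot 3, and the change of 0.86 (SE 0.55) did not pass (adjusted p = 0.439). FT homolog c77009_g3 had 194, 140, 188 and 132 reads against 400, 216, 88 and 148, with the same plots up and down (change 0.33, adjusted p = 0.811). The plot with the highest CONSTANS-like level at both time points, plot 3, had the lowest level of both FT homologs at B. At A, in contrast, it had the highest level of c77009_g3 (4.255 on the log2 scale). Its level of c64038_g2 at A (3.746) was below only that of plot 1 (4.016). A relation between them was not tested.

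**Figure D4:**
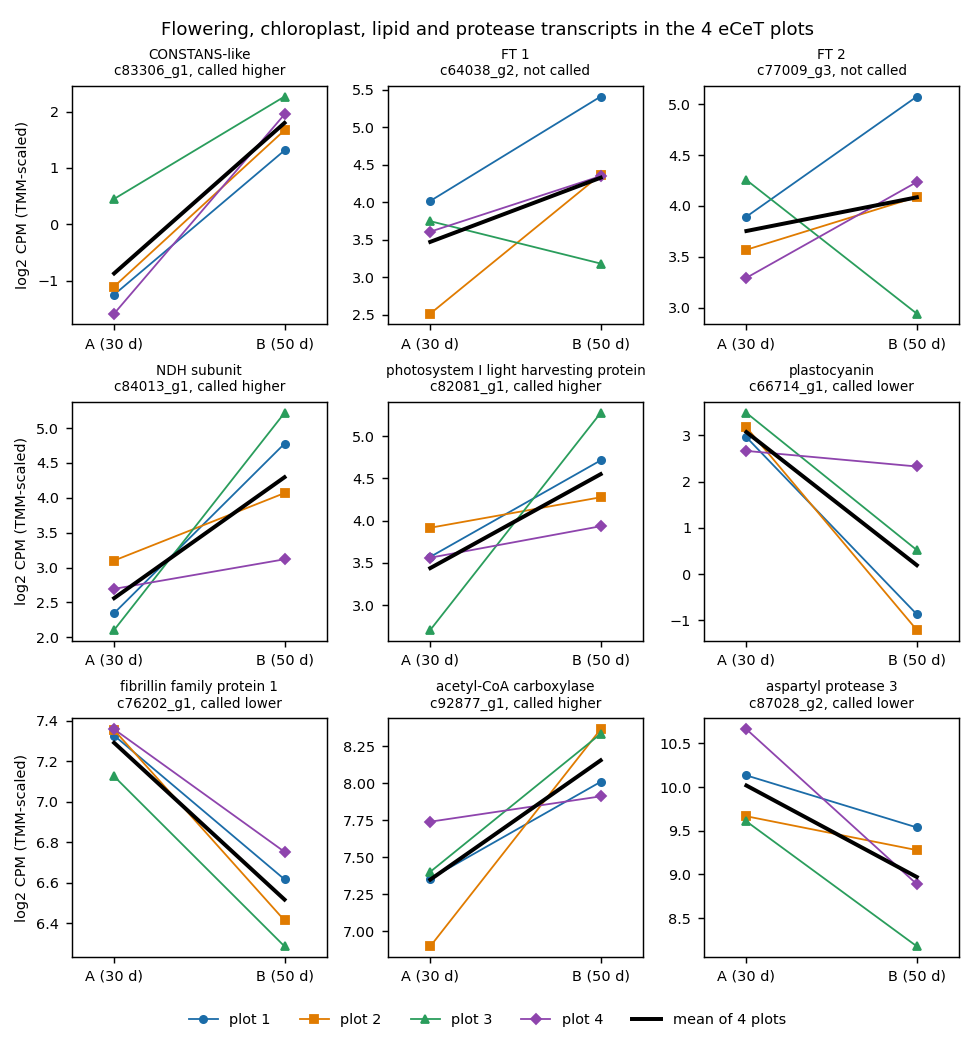
Level of 9 transcripts of flowering, the chloroplast, lipid synthesis and proteolysis (y axis, log2 of TMM-scaled CPM) at A and B (x axis), 1 coloured line per eCeT plot and the mean in black. The CONSTANS-like line rises in 4 of 4 plots, plastocyanin falls in 4 of 4 but little in plot 4, and plot 3 alone falls in both FT panels.

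In lipid metabolism 1 of 5 transcripts rose and none fell, where 3.1% of all transcripts rose and 2.94% fell. The acetyl-CoA carboxylase homolog c92877_g1, the enzyme that starts fatty acid synthesis, had 2142, 1412, 1670 and 2889 reads at A and 3063, 4196, 3717 and 1899 at B. On the CPM scale the time points did not overlap, and the rise was 0.81 (SE 0.21, adjusted p = 0.0412), which did not pass without plot 1, 2 or 3, without TMM scaling (0.56, adjusted p = 0.261), in the FPKM data (0.45, adjusted p = 0.297) or without a variance trend (adjusted p = 0.109). It rose as well in C (1.62), eC (1.08) and eT (0.77), with adjusted p of 0.000339, 0.00568 and 0.024. A lipid-transfer protein of this group, c47332_g1, had a single read in the 8 libraries.

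Of 4 proteases 1 fell and 1 rose, where 2.94% and 3.1% of all transcripts did, and neither was called without plot 3. Aspartyl protease c87028_g2, the most abundant of them, fell by 1.05 (SE 0.23, adjusted p = 0.0218), from 14689, 9610, 7696 and 21907 reads to 8832, 7900, 3332 and 3735. It fell in C, eC and eT too (-1.20, -1.48 and -1.15, adjusted p = 0.00523, 0.00202 and 0.00486). The cysteine proteinase c77979_g6 rose by 1.51 (adjusted p = 0.0562), from 6, 10, 3 and 11 reads to 28, 10, 29 and 13, and was level in plot 2. Of 7 regulators and transporters the PHD finger protein c72499_g1, of a family that reads histone marks, rose by 1.66 (SE 0.41, adjusted p = 0.0339), from 19, 21, 2 and 8 reads to 26, 35, 35 and 17, and was not called without plot 3. The NPH3 family protein c92145_g1, of a family that passes on blue-light signals in Arabidopsis, went from 7, 8, 8 and 18 reads to 5, 3, 0 and 1. Its time points did not overlap, but it did not pass (-2.21, adjusted p = 0.108).

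In all, 14 of the 86 named transcripts rose and 10 fell, and 62 did not pass, where 3.1% of all transcripts rose and 2.94% fell. The time points were fully apart in 13 of the 86 upward and 8 downward, where the share of all transcripts was 5.12% and 4.48%. Of the 13, the alpha/beta-hydrolase c65677_g1 had no read in any library of A or in plot 4 at B. It was apart only by the value that 0 reads take in a library of small effective size. Since 74 of the 86 were picked on libraries of A and 12 on those of B, nothing is read from the excess. With plot 3 left out 3 of the 86 were called.

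Outside the named groups, the largest changes alike in 4 of 4 plots were taken from the transcripts with at least 10 reads in each library of the higher date. The 2 largest falls were c65859_g1, with 56, 38, 34 and 43 reads at A and 1, 0, 0 and 3 at B (change -5.17, SE 0.68, adjusted p = 0.00172), and c61208_g1, with 39, 28, 47 and 39 against 2, 0, 0 and 2 (change -4.95, SE 0.60, adjusted p = 0.000921). Both fell by similar amounts in C, eC and eT, c65859_g1 by -4.68, -5.64 and -5.12 and c61208_g1 by -4.72, -4.45 and -5.31, and passed in each. The 2 largest rises were c45791_g1, with 0, 12, 0 and 0 reads against 14, 37, 53 and 18, and c84567_g1, with 0, 11, 0 and 1 against 27, 42, 51 and 18. They rose by 4.75 and 4.64 (adjusted p = 0.00624 and 0.00303). In both the reads of A came from plot 2, except for 1 read of c84567_g1 in plot 4. Both transcripts rose in C as well (2.89 and 2.82, adjusted p = 0.0337 and 0.0178) and did not pass in eC or eT.

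The most abundant transcript, c78052_g1, had 454059, 1448342, 297873 and 208905 reads in plots 1 to 4 at A and 1717269, 1056467, 2830736 and 4808835 at B. It was higher in plots 1, 3 and 4 by 2.06, 3.03 and 5.30 and lower in plot 2 by 0.56. Its mean change of 2.46 (SE 0.93) did not pass in this fit (adjusted p = 0.154), whereas voom on the recovered reads gave 0.0259.

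To ask whether the change in eCeT was also seen in the other treatments, the same fit was read in C, eC and eT, whose plots are different ones. More transcripts were called there, 5526 in C (14.1% of those tested), 5262 in eC (13.4%) and 5637 in eT (14.4%). Of the 2371 transcripts called in eCeT, 1241 were called in the same direction in C, which is 52.3% of the calls in eCeT and 22.5% of those in C. In eC it was 936 (39.5% and 17.8%) and in eT 1098 (46.3% and 19.5%). Calls in the opposite direction numbered 9, 8 and 1. In all 4 treatments together 591 were called in the same direction, 179 higher and 412 lower, and 688 were called in eCeT and in no other treatment. Of the 1217 that rose in eCeT 281 also passed as higher in eC, compared with 619 in C and 432 in eT, whereas of the 1154 that fell the numbers were 655, 622 and 666. The totals called higher were unequal as well, 2338 in eC, 2930 in C and 2805 in eT. Those called lower numbered 2924, 2596 and 2832.

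The difference of the time changes was tested directly. No transcript of the 39208 had a time change in eCeT that differed from that in C, eC or eT (limma, 0 calls and 0% in each). The smallest adjusted p was 0.102 against C, 0.24 against eC and 0.59 against eT. At an unadjusted p under 0.05 there were 2622, 3384 and 2956, and voom on the recovered reads also made 0 calls in each. The median standard error was 0.53 for a difference of time changes and 0.37 for the change in eCeT itself, so differences between treatments would have to be larger to be seen. A call in eCeT and not in another treatment is therefore no sign that the 2 differ.

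The medians of the groups are given side by side for the 4 treatments. None of the 86 transcripts had a called difference, and differences between the medians were not tested. Of all 39208 transcripts, 2596 were called lower in C, 2924 in eC, 2832 in eT and 1154 in eCeT. Those called higher numbered 2930, 2338, 2805 and 1217. Since fewer were called in eCeT over all transcripts, fewer called members there are not read as a difference between treatments. The defence proteins had a median of -2.13 in C, -1.15 in eC, -1.02 in eT and -0.33 in eCeT, with 11, 6, 6 and 1 of 13 called lower. The PR-1 family protein c93531_g5 fell by 2.57 in C (adjusted p = 0.000403) and had a value of -0.45 in eCeT, where it did not pass. Its difference of 2.11 (SE 0.47) had an adjusted p of 0.431, and without eCeT plot 3 it was 2.67 and passed (adjusted p = 0.0654). In the receptor group the medians were 0.01, 0.13, 0.87 and 1.45, and 5 members rose in eT and none in C or eC. Heat shock had medians of -0.75, -1.67, -1.64 and -1.24, with 4, 7, 6 and 3 of 9 called lower. Because most members were chosen for a difference of eCeT from C at A, a different time change in these 2 treatments is in part built into the choice.

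**Figure D5:**
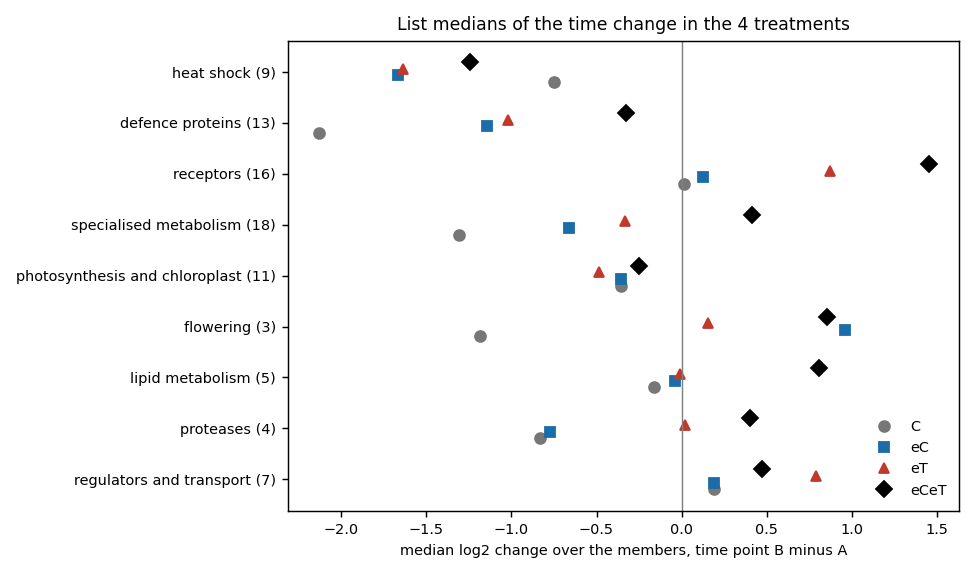
Median log2 change between time points A and B (x axis) over the members of each group (y axis, number of members in brackets) in C (grey circles), eC (blue squares), eT (red triangles) and eCeT (black diamonds). Defence proteins lie at -2.13 in C and -0.33 in eCeT, receptors at 0.01 and 1.45, and heat shock is below 0 in each treatment.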

How the data were processed

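The authors sequenced leaf RNA on a HiSeq (CASAVA and bcl2fastq 1.8.4 per the labels), assembled transcripts de novo and named them by BLAST. The aligner and counter are not given in the sources used here. They deposited log2 values for 39208 transcripts (reads plus 0.5, TMM-scaled library size, per 1e6) and FPKM for 45073, with 39117 in both. In the FPKM file 3 control columns with contradictory headers were not used. Reads were recovered from the log2 values, 100% of those up to 1000 within 0.02 of a whole number.

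Time point B was tested against A with limma 3.58.1 (R 4.3.3) on the log2 values of 32 libraries, with the 16 plots as a block, a time change per treatment, a variance trend and Benjamini-Hochberg adjustment over all transcripts, and called at an adjusted p under 0.1, the study's threshold. The pairing comes from the labels: each plot was sampled at both dates. Deviations of the same plot at the 2 dates correlated at 0.01 to 0.10 in eCeT and above 0.1 in 6 of 16 plots. An exact permutation test of 4 pairs cannot go below 0.125. A plot is 1 pool of leaves, so the error includes technical spread. The test was checked on simulated data.

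The named transcripts and lists were chosen with earlier results of these data known. Besides the lists, the 2 largest called rises and falls among unnamed transcripts were taken (4 of 4 plots alike, at least 10 reads in each library of the higher time point), and the transcript with most reads. A MiSeq pool was not analysed here, and metabolites were not used here. Alternatives were no block, the plot as a random effect, only the 8 eCeT libraries, a filter of 1 CPM, quantile normalization, median centring, no TMM scaling, 5 reads added, log2(FPKM + 1), no trend, robust moderation, voom on the reads, a threshold of 0.05, and the omission of each plot. Python 3.11.15, pandas 2.3.3 and matplotlib 3.10.9 were used for tables and figures.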

Additional observations from a re-analysis of the deposited data

Results flagged for a closer look

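Among 98 groups of 4 libraries tested for a value far from the other 3, 7 stood out, where chance alone flags about 5%. Of the 7, 5 are the library of eCeT plot 3 at A. There the summed level of the heat shock group was 699 CPM and that of the defence proteins 278, both far above the other 3 plots, and the class II small heat shock protein c85117_g1 stood at 7.44 on the log2 scale. In the same library the UDP-glucosyltransferase c82435_g1 had no read (-4.30), far below the others. The fibrillin family protein c76202_g1, at 7.13 there, was only slightly below the other 3 plots, which lay close together between 7.33 and 7.36. The polygalacturonase inhibiting protein c86748_g3 was at -3.98 in plot 4 at B, also with no read. The unnamed c45791_g1 was at 0.08 in plot 2 at A, with 12 reads where the other 3 plots had 0.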

How the results depend on the processing

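The count of 2371 changed transcripts stayed within 1.5 times under 10 of the 13 alternatives that kept the 4 plots. Without the replicate block, so without pairing by plot, it was 1751. It became 4894 in the FPKM table (505 higher, 4389 lower), 1217 without a variance trend (713 and 504) and 1077 at an adjusted p under 0.05 (565 and 512). Without TMM scaling 668 were higher and 2696 lower. With 1 plot left out the count ran from 279 to 1742, with 146 to 984 higher and 133 to 758 lower, lowest without plot 3. The difference from C had 4 calls after median centring, 2 without TMM scaling, 1 with 5 reads added, 3 with robust moderation and 0 to 1 with a plot left out. That from eC had 1 call after centring, 1 in the FPKM table, 5541 without TMM scaling and 0 to 49 with a plot left out, 49 without plot 2. That from eT had 0 in each. Beside c72426_g1, at -0.077 without TMM scaling and -0.12 in the FPKM table, no transcript followed singly turned its direction. Of 28 such transcripts with a call, 6 kept it in each alternative, among them CONSTANS-like c83306_g1 and the leucine-rich repeat kinase c80773_g2. Leaving out plot 3 ended 21 of the 28 calls, and dropping the block 2, HSP101 and the dioxygenase c79944_g1. The causes were not tested. Members with few reads are limited by depth.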

Other observations

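The FPKM table holds 5956 transcripts that are not in the log2 table. All are listed without a test here. In eCeT 99 of them (1.66%) had 4 values at B above the 4 of A and 147 (2.47%) had them below, and 106 were listed at 0 in the 8 libraries. Over all log2 values the Euclidean distance between the 2 libraries of a plot had a median of 223 over the 4 plots, compared with 217 between different plots at A and 201 at B. The widest pair was 265.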
